A study of Rattus norvegicus with 6 samples.

Results

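The splicing factors and hnRNP proteins described here were taken by symbol: every non-control probe whose RefSeq accession belongs to a rat gene named Srsf, Hnrnp, Snrp, Sf3a or Sf3b. This gave 51 of the 24684 non-control probes on the array, for 41 of 13903 named genes. They were 10 SR proteins, 16 hnRNP proteins, 8 Sm and snRNP proteins and 7 subunits of SF3A and SF3B. Of the 51 probes, 44 for 34 genes were tested, since at least 3 of the 6 scans found them well above background.

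The spliceosome, which cuts introns out of messenger RNA precursors, assembles from small nuclear ribonucleoproteins (snRNPs). Most of these hold a small nuclear RNA in a ring of Sm proteins. SF3A and SF3B are parts of the U2 snRNP, which binds the branch point of the intron. SR proteins, named for their arginine and serine repeats, bind exons and mostly favour their inclusion, whereas hnRNP proteins coat nascent transcripts and often have the opposite effect. Many genes of both families limit their own expression through alternative splicing of their transcripts. Acinar cells of the pancreas make large amounts of a few secreted enzymes, and the messenger RNAs of these enzymes depend on the same machinery.

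RNA was measured in the pancreas of male rats of 6 weeks on 1-colour Agilent arrays. The arrays labelled AP came from rats with acute pancreatitis, an inflammation of the gland, induced by injecting 1 mL/kg of 4% sodium taurocholate, a bile salt, backwards into the pancreatic duct, with tissue taken after 9 h. The control arrays came from rats labelled only as control, without a statement on a sham operation, and the labels give no strain for either group. Each group had 3 deposited scans, but scan 3 was a second reading of the array of scan 2 in both groups, which left n = 2 arrays per group.

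Deviations of single spots from their probe mean correlated with r = 0.992 between AP 2 and AP 3 and with r = 0.993 between control 2 and control 3, against 0.199 to 0.739 in the other 13 pairs (across 1644 spots, which are not independent replicates). Slots 3 and 4 of the slide held the AP arrays and slots 1 and 2 the control arrays, so place on the slide and group cannot be told apart. The labels name an extract from each rat, and p-values measure the spread between these 4 arrays. With so few arrays, precision is limited by their number.

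The signal of the arrays labelled AP went against that label in part. Ccl2 and Il1b, genes of inflammation that were looked up after their values were known, were lower there by 5.85 ± 0.09 and 3.98 ± 0.12 on the log2 scale (SE; limma, adjusted p = 0.000601 and 0.000669). Cxcl2 and Il6, looked up with them, were not well above background on any AP scan and were at least 215-fold and 29.1-fold lower. All 7 tested T cell markers were higher on the arrays labelled AP (median log2 fold change 3.50). Their summed signal over 9 markers was 40.2 to 42.0 times the 75th percentile on the AP arrays and 3.62 to 4.39 times on the control arrays, with Cd4 and Ccr7 below the background test throughout. All 3 tested B and plasma cell markers were also higher (median 5.67, summed signal over 4 markers 3.82 to 3.83 on AP and 0.125 to 0.260 on control arrays). Of the adipocyte markers 4 of 5 tested were lower (median -4.93; summed signal 11.3 to 11.5 on AP and 358.9 to 370.1 on control arrays), and all 4 tested erythroid markers were lower (median -2.38; 28.4 to 29.3 on AP and 629.9 to 727.7 on control arrays). Of the neutrophil markers 3 of 4 tested were lower (median -3.60). Their summed signal was 0.755 to 1.64 on AP and 21.9 to 23.9 on control arrays. S100a8 and Csf3r were not well above background on any AP scan and were at least 90.7-fold and 3.07-fold lower. That median therefore includes AP readings at background. Cxcr2, not past the threshold, differed between the AP arrays (log2 -3.89 and 0.19). Of the fibroblast markers 4 of 5 were lower (median -1.60, 20.0 to 23.4 on AP and 75.6 to 93.7 on control arrays). Dcn had no value on control replicate 1, so the fibroblast sums of the control arrays cover different markers. Islet markers were lower in 2 of 4 (3.66 to 4.43 on AP and 8.47 to 10.2 on control arrays). Duct markers were higher in 1 and lower in 2 of 4 (22.9 to 29.3 on AP and 19.1 to 20.5 on control arrays). Macrophage markers were higher in 2 and lower in 1 of 5 (16.5 to 36.3 on AP and 21.5 to 26.3 on control arrays). Cd68, at log2 4.38 on AP scan 1, had no value on AP scans 2 and 3. The macrophage sums of the AP arrays therefore cover different markers, and their range is not a spread between those arrays. The labelled tissue was visible in 10 of 12 acinar markers, of which 7 were higher and 3 not past the threshold (summed signal 58.8 to 69.3 on AP and 47.0 to 47.8 on control arrays), while Ptf1a and Rbpjl, transcription factors of acinar cells, did not pass the background test in any scan. The part of these differences in cell makeup in the results below was not tested, and fewer cells of a type and less RNA per cell cannot be told apart in whole tissue.

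Signals below are given in log2 after subtracting each array's 75th percentile, a level that was 70.1 to 77.7 on the AP scans and 140.4 to 147.3 on the control scans. A value of 0 is that percentile. Scaling removed a difference of -0.96 on the log2 scale (AP minus control). Without it, 43 of 44 member probes lay below 0 (median -0.95), as did most other probes (median -0.88 over 13217), so a fold change here is set against the overall signal of its array. Folds are AP over control with the SE of a limma fit, and a probe changed at an adjusted p (Benjamini and Hochberg, over 13217 probes) below 0.05.

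The comparison asks which of these genes differed between the arrays labelled AP and those labelled control. Rose and fell mean higher and lower on the arrays labelled AP. Whether that label marks the inflamed tissue was not tested. Splicing factor genes differed little between the groups. Of 34 tested genes, 4 rose (Srsf7, Sf3a1, Snrpb and Hnrnpul1), 9 fell (Srsf2, Hnrnpk, Hnrnpab, Hnrnpu, Hnrnpa2b1, Hnrnpdl, Snrpd1, Snrpa and Sf3b5) and 21 did not pass the threshold. Each of these genes was called by 1 probe, which makes 13 of 44 member probes, 29.5%, against a background of 55.1% of all tested probes. Among the called genes, Snrpd1 was not well above background on any AP scan. The share that rose was 4 of 44 against 26.9% of all probes, and 9 of 44 fell against 28.2%. Over genes, 13 of 34 were called, against 56% of 8732 genes, with 4 higher (background 24.1%) and 9 lower (background 31.9%). By class, 2 of 9 SR (22.2%) and 6 of 14 hnRNP genes (42.9%) were called. The calls were 3 of 6 (50%) for Sm and snRNP and 2 of 5 (40%) for SF3A and SF3B genes. These shares rest on 5 to 14 genes, so no class is read as apart from that 56%.

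The median log2 fold change was 0.01 over the 44 member probes and 0.08 over all probes. Without sign, the median difference was 0.29 for the members and 0.68 for all tested probes. A difference under 0.5 was seen in 34 of 44 member probes (77.3%), compared with 37.8% of all probes. Among the members Srsf7 alone differed by more than 1, whereas 32.5% of all probes did. These are descriptions, without a test of the members against other probes.

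**Figure D1:**
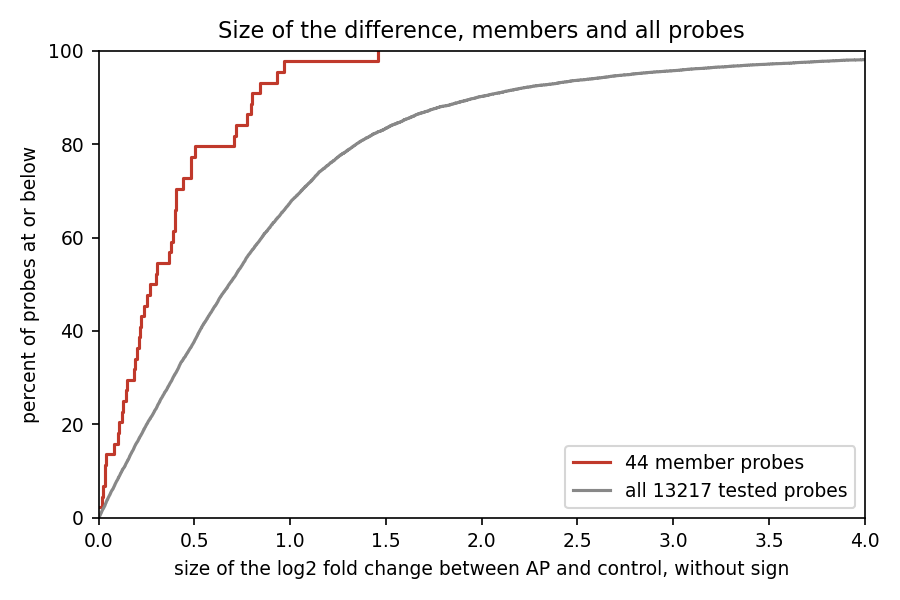
The size of the log2 fold change between AP and control, without sign, is plotted on the horizontal axis against the percent of probes at or below it, for 44 member probes (red) and all 13217 tested probes (grey). The members' curve lies to the left, with 77.3% of member probes under 0.5 against 37.8% of all probes; the axis ends at 4, beyond which some of the other probes lie.

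The median differences within a group were smaller than the median difference of 0.29 between the group means of the members. Over the 44 member probes, the median difference between the scans of 1 array was 0.03 in AP and 0.02 in control on the log2 scale. Between the arrays of a group it was 0.08 in AP and 0.10 in control. The scans of the groups did not overlap for 18 probes with AP above and 17 with AP below, 40.9% and 38.6%, close to the 39.9% and 36.9% of all tested probes (76.8% for either direction). Many members therefore separated by scan without passing the test on 4 arrays.

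Among the SR proteins, 1 of 9 tested genes rose, 1 fell and 7 did not pass. Srsf7, an SR protein with a zinc knuckle that also helps to export messenger RNA, had log2 signals of 0.60, 0.35 and 0.40 on AP scans 1 to 3, against -1.01, -0.94 and -0.94 on control scans 1 to 3. All AP scans lay above all control scans. It rose 2.75-fold (1.46 ± 0.13, SE, n = 2 arrays per group, limma adjusted p = 0.00318). Its rise was smaller under the normexp background correction (0.77 with the quantile and 0.78 with the percentile scaling), and without scaling it was 0.50 and lost its call (adjusted p = 0.0538).

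Srsf2, a factor that stays in the nucleus and binds exonic enhancers, went the other way. Its log2 signals were 0.34, 0.20 and 0.18 on AP scans, against 1.01, 1.12 and 1.12 on control scans, without overlap. It fell by 0.80 on the log2 scale (SE 0.11, limma adjusted p = 0.00885) and missed the threshold without control replicate 2 (adjusted p = 0.0540); normexp with quantile scaling gave -0.48.

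The upstream sequence of these genes is shown because Srsf7 and Srsf2 on one hand, and Sf3a1 and Sf3b5 on the other, are the members of their class with the largest change each way. Each line gives the 120 bases before the start of the gene, 5′ to 3′ on its own strand, from the RefSeq promoter table (assembly GRCr8), with matches to the searched motifs in capitals.
Srsf7 (chr6:20563932-20564051, plus strand): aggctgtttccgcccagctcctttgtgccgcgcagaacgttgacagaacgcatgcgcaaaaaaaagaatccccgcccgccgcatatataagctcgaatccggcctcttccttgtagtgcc
Srsf2 (chr10:102554142-102554261, minus strand): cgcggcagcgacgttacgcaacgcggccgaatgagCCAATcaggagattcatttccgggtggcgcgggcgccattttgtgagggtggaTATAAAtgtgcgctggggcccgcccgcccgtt
Sf3a1 (chr14:83254851-83254970, plus strand): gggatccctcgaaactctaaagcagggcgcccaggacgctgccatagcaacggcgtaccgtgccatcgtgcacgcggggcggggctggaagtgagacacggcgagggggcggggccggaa
Sf3b5 (chr1:9177069-9177188, plus strand): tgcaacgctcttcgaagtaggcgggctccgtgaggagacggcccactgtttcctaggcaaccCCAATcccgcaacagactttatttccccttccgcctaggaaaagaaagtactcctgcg

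The motifs searched on both strands were the ETS core CCGGAAG, the core of YY1 sites, which reads AAGATGGC, the TATA box in the form TATAAA, the box named for its letters CCAAT, and the E-box with the letters CACGTG. They were looked for in the 250 bases before the start, and no motif holds another. The table held 44 promoters for 40 of the 41 members. The ETS letters were in 29.5% of them, against 7.27% of all 33469 promoters, and the CCAAT letters in 54.5%, against 34.0%. The TATA letters were in 15.9%, against 12.9%, and the E-box in 11.4%, against 5.59%. The YY1 letters were in none, against 1.63%. Member promoters also had more bases G and C (median 60.2%, against 51.2%) and more CpG pairs (median 21, against 5). Among the called genes, the ETS letters were in 2 of 4 promoters of genes that rose and in 1 of 10 of genes that fell. A match is a description of these letters, not a binding site.

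The other SR proteins gave smaller differences. Srsf1, the founding SR protein, had log2 signals of -0.76, -0.90 and -0.63 on AP scans and -0.48, -0.26 and -0.33 on control scans, with AP below in every scan (-0.38 ± 0.11, SE, limma adjusted p = 0.0565). Srsf5 had 1.98, 1.68 and 1.70 on AP scans and 1.34, 1.36 and 1.38 on control scans, with AP above in every scan (0.48 ± 0.14, adjusted p = 0.0549). Both missed the threshold narrowly. Srsf1 passed it in 6 of 18 alternatives, among them quantile normalization (-0.45, adjusted p = 0.0455) and the deposited values (-0.45, 0.0433). Srsf5 passed it in 8, among them quantile normalization (0.64, 0.0250), the deposited values (0.63, 0.0289) and normexp with quantile scaling (0.45, 0.00853). With the normexp background and the same percentile scaling Srsf1 read 0.07 and Srsf5 -0.04, and without scaling Srsf5 read -0.48. Srsf4 (-0.40, adjusted p = 0.0536) and Srsf9 (-0.31, 0.0706) were similar in size to Srsf1.

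Srsf6 stood at 0.12 ± 0.09 (adjusted p = 0.322). Srsf3, a short SR protein that promotes export of messenger RNA, had signals of -2.06, -2.33 and -2.36 on AP scans and -2.30, -2.29 and -2.24 on control scans, which overlapped. It was not well above background on any AP scan, as was Srsf10, a splicing repressor when dephosphorylated (AP -3.39, -2.67 and -3.03; control -2.74, -2.62 and -2.83). For these genes no fold is given. Srsf12 was below the background test in all scans and was not tested.

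Among the hnRNP proteins, 1 of 14 tested genes rose, 5 fell and 8 did not pass. Hnrnpk, which binds runs of C through its KH domains, had log2 signals of 3.36, 3.39 and 3.41 on AP scans, against 4.17, 4.26 and 4.29 on control scans. The groups were far apart relative to their own scatter. It fell by 0.84 (SE 0.10, limma adjusted p = 0.00588), which is 1.80-fold lower, and under normexp with percentile scaling the fall was larger (-1.51).

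Hnrnpab had 3.08, 2.84 and 2.87 on AP scans, against 3.74, 3.77 and 3.81 on control scans, and fell by 0.80 (SE 0.13, limma adjusted p = 0.0115). Hnrnpu, a scaffold protein of nuclear chromatin, had 1.88, 1.81 and 1.85 on AP scans, against 2.36, 2.37 and 2.37 on control scans, and fell by 0.51 (SE 0.09, adjusted p = 0.0168). Hnrnpa2b1, which sorts RNAs for transport, had 0.93, 0.89 and 0.89 on AP scans, against 1.34, 1.36 and 1.36 on control scans, and fell by 0.44 (SE 0.09, adjusted p = 0.0231). No AP scan of these genes reached a control scan, and the difference was smallest for Hnrnpdl, a relative of Hnrnpd (-0.41 ± 0.11, adjusted p = 0.0473; AP scans -1.16 to -0.99, control scans -0.71 to -0.62).

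Hnrnpul1 was the hnRNP gene that rose, with 0.30, 0.17 and 0.16 on AP scans, against -0.30, -0.18 and -0.22 on control scans (0.48 ± 0.11, limma adjusted p = 0.0282). Without scaling it was -0.47 and past the threshold in the other direction (adjusted p = 0.0428). Under normexp with percentile scaling it lost its call (0.26, 0.270). Hnrnpdl was 0.20 under normexp with percentile scaling. Hnrnpa2b1 and Hnrnpu lost their calls under quantile normalization (-0.32 each, adjusted p = 0.0569 and 0.0644). The deposited values gave -0.33 for each, also without a call (0.0504 and 0.0584). Under normexp with quantile scaling Hnrnpu (-0.20, 0.171) and Hnrnpdl (-0.21, 0.0845) lost theirs. Without the filter on dim probes Hnrnpdl (0.0835) and Hnrnpul1 (0.0535) missed the threshold. Leaving out 1 array kept the call of Hnrnpk in all 4 cases (adjusted p 0.0326 to 0.0402). Hnrnpab lost its call without control replicate 1 (0.0565) or control replicate 2 (0.0673). Hnrnpu (0.0577 to 0.0770), Hnrnpa2b1 (0.0739 to 0.0959), Hnrnpdl (0.0755 to 0.167) and Hnrnpul1 (0.0651 to 0.109) lost theirs without any 1 of the 4 arrays.

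Hnrnpa1, a splicing repressor that shuttles between nucleus and cytoplasm, had 1.13, 1.07 and 0.99 on AP scans and 0.60, 0.98 and 0.95 on control scans. Control replicate 1 stood apart from the other control array, and the difference did not pass (0.30 ± 0.17, limma adjusted p = 0.202). The RefSeq table lists 51 pseudogenes of Hnrnpa1 and 121 for 23 of the 41 members together, among them 10 of Srsf3 and 7 each of Srsf7 and Hnrnpk. Probe sequences were not used here, and whether a probe also binds transcripts of such copies was not tested.

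For 5 hnRNP genes several probes, each made for another transcript, measured the same comparison. Hnrnpd, also called AUF1, which binds AU-rich elements of unstable messenger RNAs, had 4 probes with log2 fold changes of 0.10 to 0.19, none past the threshold. Its brightest probe had 2.09, 2.07 and 2.08 on AP scans and 1.94, 1.97 and 1.92 on control scans. Hnrnpf, which binds runs of G, had 4 probes at -0.22 to -0.15, Hnrnpm 2 probes at 0.24 and 0.25, and Hnrnpl, which binds CA repeats, 2 probes at -0.04 and 0.02. The probes of each of these genes lay within 0.09 of each other in fold change.

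Hnrnpa3 was the exception. Its probe for NM_001111294 read -0.21 ± 0.10 (limma adjusted p = 0.142), with 1.40, 1.41 and 1.42 on AP scans and 1.67, 1.59 and 1.55 on control scans. Its probe for NM_001111295 read 0.40 ± 0.12 (adjusted p = 0.0608), with 0.92, 0.73 and 0.69 on AP scans and 0.46, 0.35 and 0.39 on control scans. The scans of the groups did not overlap for either probe, and the directions were opposite. The probe for NM_198132 lay between them (0.01 ± 0.15). The difference between these probes was not tested.

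**Figure D2:**
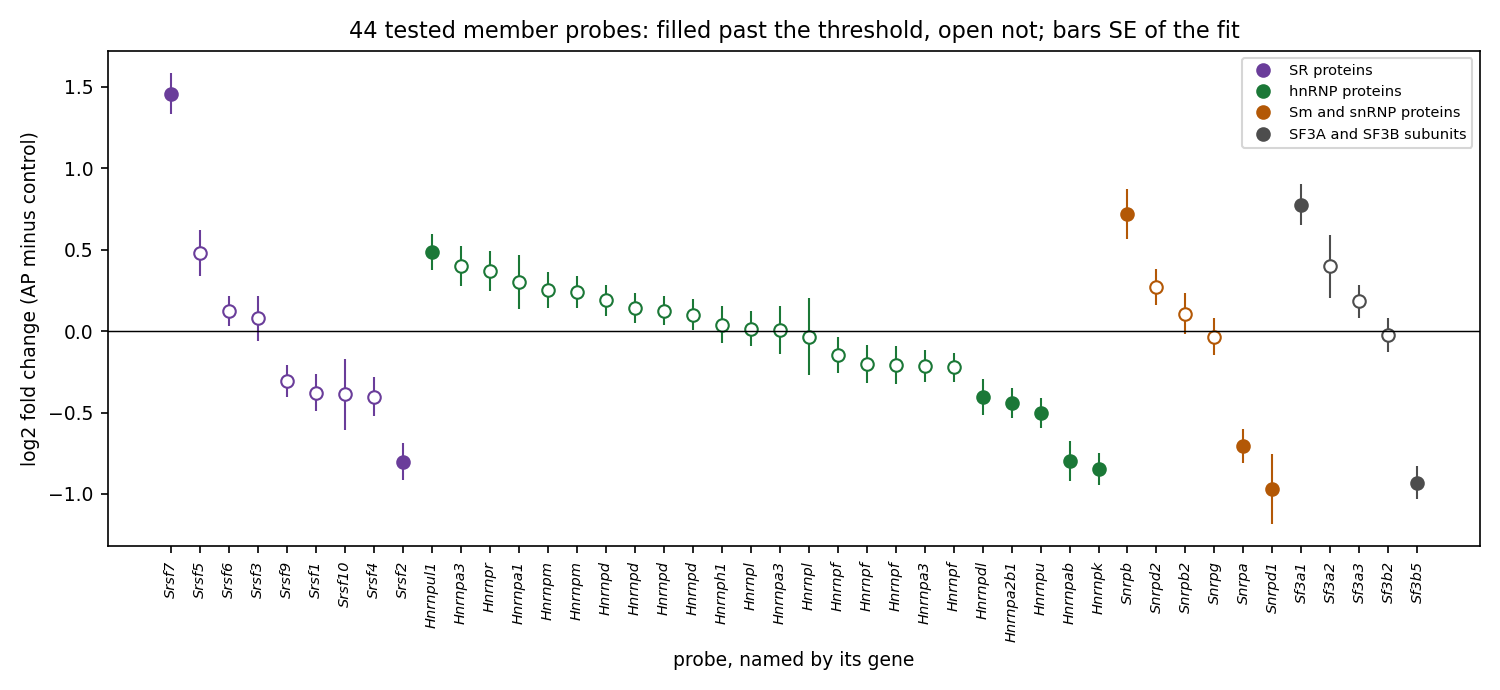
Log2 fold changes (AP minus control) of the 44 tested member probes are plotted by class, with bars for the SE of the limma fit (n = 2 arrays per group) and filled points for the 13 probes past the threshold. Srsf7 at 1.46 stands above all others, and the 4 Hnrnpd, 4 Hnrnpf, 2 Hnrnpm and 2 Hnrnpl probes lie close to each other while the 3 Hnrnpa3 probes run from -0.21 to 0.40.

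Among the Sm and snRNP proteins, 1 of 6 tested genes rose, 2 fell and 3 did not pass. Snrpb, a protein of the Sm ring of most spliceosomal snRNPs, had log2 signals of 2.08, 2.45 and 2.39 on AP scans, against 1.54, 1.54 and 1.50 on control scans. It rose 1.65-fold (0.72 ± 0.16, SE, limma adjusted p = 0.0255). Snrpa, an RNA-binding protein of the U1 snRNP, had 0.98, 1.10 and 1.14 on AP scans, against 1.74, 1.78 and 1.78 on control scans, and fell by 0.70 (SE 0.11, adjusted p = 0.0101). Neither gene had overlapping scans.

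Snrpd1, another Sm protein, was dim. It had -2.95, -3.35 and -3.45 on AP scans, none well above background, against -2.35, -2.01 and -2.12 on control scans, and was at least 1.23-fold lower (limma adjusted p = 0.0276). For the AP arrays that bound takes the probe's own signal or the dimmest signal that still counted as above background, whichever is higher. Snrpd1 passed the filter through its control scans alone, and its p-value rests on AP readings at background. Under normexp with percentile scaling Snrpd1 was 0.61 and past the threshold in the other direction (adjusted p = 0.0489), and under normexp with quantile scaling it was -0.07. Its call was also lost in these settings: quantile-normalized arrays (-0.95, adjusted p = 0.0956), the table of deposited values (-0.97, 0.0949) and a fit without the filter on dim probes (0.0511).

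Snrpb was 0.11 under normexp with percentile scaling (adjusted p = 0.723) and -0.24 without scaling (0.197). Snrpb lost its call without AP replicate 2 (0.0577), control replicate 1 (0.0993) or control replicate 2 (0.112), and Snrpd1 in the same 3 cases (0.0749, 0.0709 and 0.121). Snrpa lost its call without control replicate 1 (0.0506) or control replicate 2 (0.0602), and was -0.38 under normexp with quantile scaling. The remaining tested genes were Snrpd2 (0.27, adjusted p = 0.112), Snrpb2 of the U2 snRNP (0.11, 0.505) and Snrpg (-0.03, 0.818). Snrpn, an imprinted relative of Snrpb, had -3.86, -3.13 and -3.70 on AP scans and -3.04, -4.47 and -5.09 on control scans, none well above background. Snrpf was well above background on 1 scan, of a control array, and was not tested.

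Among the SF3A and SF3B subunits, 1 of 5 tested genes rose, 1 fell and 3 did not pass. Sf3b5, a small subunit of SF3B, had log2 signals of 1.58, 1.73 and 1.64 on AP scans, against 2.59, 2.57 and 2.50 on control scans. The scans of each group lay within a narrow band. It fell by 0.93 (SE 0.10, limma adjusted p = 0.00506), 1.91-fold lower, and kept its call without any 1 array (0.0262 to 0.0362).

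Sf3a1, the subunit that carries a ubiquitin-like domain, had -0.88, -1.06 and -1.20 on AP scans, against -1.76, -1.78 and -1.82 on control scans, and rose 1.71-fold (0.78 ± 0.13, adjusted p = 0.0131). It lost its call without control replicate 1 (0.0623) or control replicate 2 (0.0731) and under normexp with quantile scaling (0.21, 0.0611), and was -0.18 without scaling. Sf3a2 (0.40 ± 0.20, adjusted p = 0.167), Sf3a3 (0.18 ± 0.10, 0.204) and Sf3b2 (-0.02 ± 0.10, 0.860) did not pass. Sf3b1, the largest SF3B subunit, which holds the branch point, had -4.25, -4.39 and -4.23 on AP scans and -5.53, -5.46 and -5.35 on control scans. Sf3b4 had -3.87, -4.24 and -4.11 on AP scans and -5.13, -5.14 and -5.05 on control scans. Neither passed the background test in any of the scans, so no fold is given.

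Of the 7 untested members, Hnrnph2 was well above background on 1 control scan (AP -3.61 to -3.11, control -3.33 to -2.27) and Hnrnph3 on 1 AP scan (AP -2.77 to -1.13, control -4.16 to -3.43). Hnrnph1, which like Hnrnpf binds runs of G, was tested and stood at 0.04 ± 0.11 (limma adjusted p = 0.787). Hnrnpr read 0.37 ± 0.12 (0.0744).

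**Figure D3:**
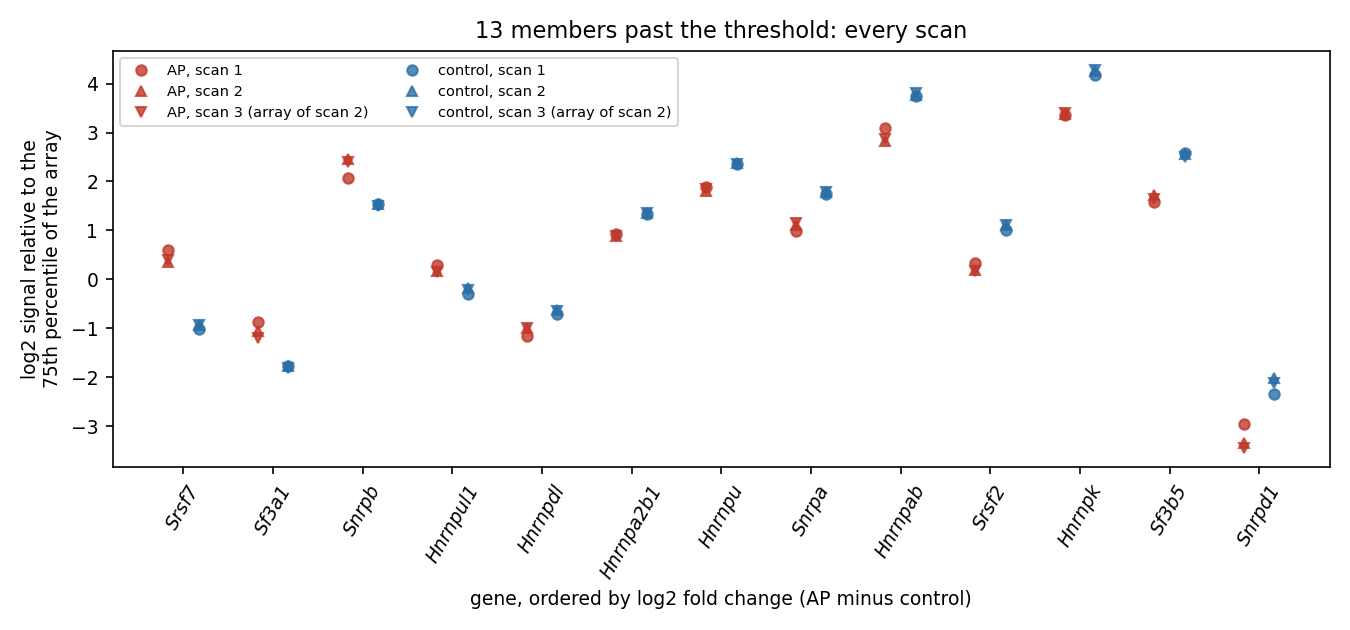
Log2 signal relative to the 75th percentile of the array is plotted for every scan of the 13 members past the threshold, AP in red to the left of control in blue; scan 3 of each group (downward triangles) repeats the array of scan 2 (upward triangles). In each gene the AP scans lie on one side of the control scans, above for Srsf7, Sf3a1, Snrpb and Hnrnpul1 and below for the other 9.

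Other genes of the splicing pathway were taken as 6 lists of 188 genes, of which 141 were on the array and 118 were tested. Of these, 30 rose, 20 fell and 68 did not pass, 42.4% called against 56% of all tested genes. By list the called share ran from 33.3% (5 of 15) to 51.9% (14 of 27), against that 56%. The highest share lay near it, and no list was tested against all genes. Of all tested genes, 24.1% were higher and 31.9% lower. Their median log2 fold change was 0.04, compared with -0.03 over all 8732 genes. Without scaling 3 of them were higher and 83 lower, and of the genes named as higher below only Srpk3, Slu7, Srrm1, Upf3b, Coil, Khdrbs2, Esrp1 and Rbfox2 still read above 0.

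The kinases of SR proteins and SR-related proteins had 6 genes higher, 1 lower and 13 not past the threshold of 20 tested (median 0.11). Clk1, Clk2 and Clk4, kinases that phosphorylate SR proteins in the nucleus and are named after their values were seen, rose by 0.70, 0.83 and 0.38, but read -0.26, -0.13 and -0.58 without scaling. Clk3, of the same family, read -0.35 ± 0.15 (adjusted p = 0.130), with 1.93, 1.92 and 1.90 on AP scans and 2.43, 2.12 and 2.08 on control scans. Srpk3, a kinase of SR proteins known from muscle, was not well above background on control arrays and at least 5.63-fold higher on AP arrays (limma adjusted p = 0.00250). It passed the filter through its AP scans alone, and that p-value rests on control readings at background. Srrm1, a coactivator with arginine and serine repeats, rose by 1.38 (SE 0.14, 0.00449) and Srpk2 by 0.85 (SE 0.12, 0.00927). Tnpo3, which imports SR proteins into the nucleus, fell by 0.75 (SE 0.10, 0.00855).

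Of the PRP19 complex, catalytic step and release factors, 6 of 19 rose, 2 fell and 11 did not pass (median 0.27). Slu7, a second-step factor, rose by 1.53 (SE 0.13, adjusted p = 0.00291), and Isy1 and Syf2 by 0.60 and 0.50; Bud31 fell by 0.61 and Smu1 by 0.48. Of the U1, U2 and tri-snRNP proteins, 4 of 15 rose, 1 fell and 10 did not pass (median 0.31), with Prpf4 at 0.86, the branch point binder Sf1 at 0.63 and Luc7l3 at 0.51, and with Rbm17 at -0.35. Of the Sm-like proteins and snRNP assembly factors, 5 of 20 rose, 4 fell and 11 did not pass (median -0.01). Coil, the marker protein of Cajal bodies, rose by 1.10, Gemin2 by 0.66 and Lsm4 by 0.62. Smn1, the core of the complex that loads Sm rings, fell by 0.85, and Wdr77 and Strap fell by 1.15 and 0.99.

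The other regulators of alternative splicing had 8 of 27 genes higher, 6 lower and 13 not past the threshold (median 0.01). Khdrbs2, Esrp1 and Rbfox2 rose by 1.04, 1.02 and 0.98, and Qki, Mbnl2 and Celf1 fell by 1.42, 1.25 and 0.99. Esrp1 is an epithelial regulator, and Qki and Mbnl2 are widely expressed RNA-binding proteins. Of the exon junction complex and export genes, 1 of 17 rose, 6 fell and 10 did not pass (median -0.07). The nonsense-mediated decay factors Upf3b and Upf3a went in opposite directions, 1.12 ± 0.10 (limma adjusted p = 0.00378) and -0.77 ± 0.15 (0.0181), and Thoc6 and Sap18 fell by 0.71 and 0.67.

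**Figure D4:**
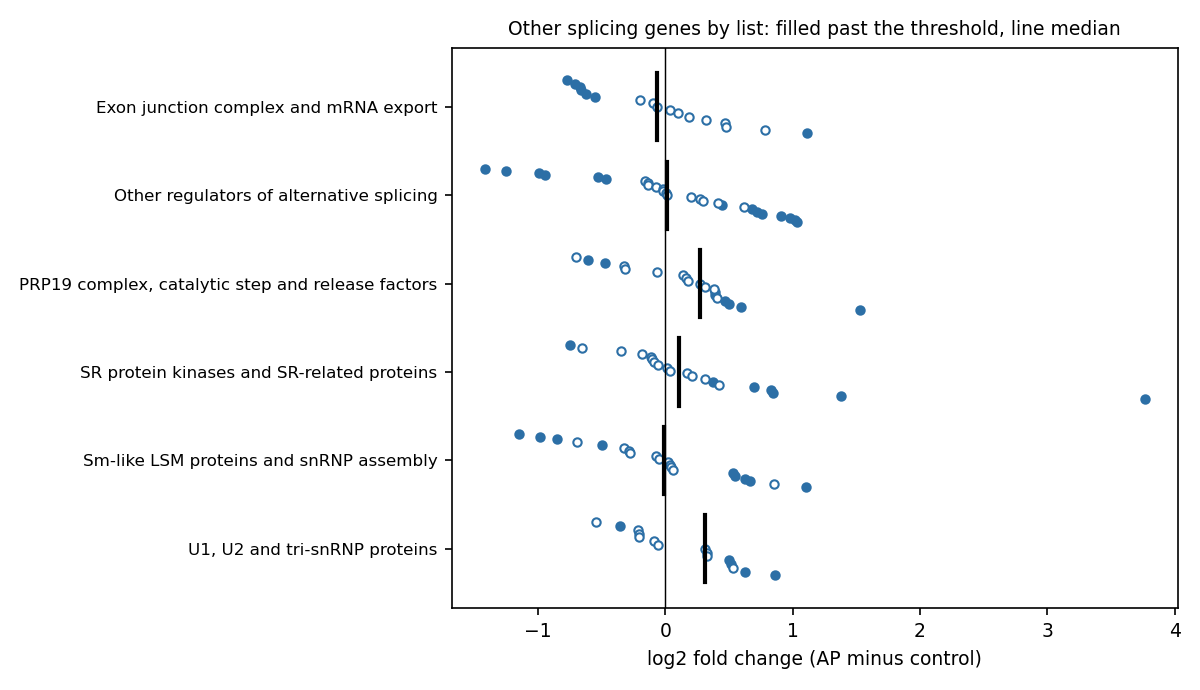
Log2 fold changes (AP minus control) of 118 tested genes in 6 lists of other splicing genes are plotted, 1 row per list, with filled points past the threshold and a black line at the median. Most genes lie within 1 of 0 and both directions occur in every list; Srpk3 lies far to the right, at a fitted value that rests on control arrays at background.

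The direction split of the members depended on the background correction and the scaling. With the 75th percentile of the processed signal, 4 of 13 called member probes were higher in AP, against 48.8% of all called probes. With quantile normalization it was 9 of 16, and with the deposited normalized values 8 of 15, against 48.2% of all called probes in each. The normexp background gave 4 of 18 with the same percentile scaling (all called probes 54.8%). With quantile scaling, where both choices differ, it gave 11 of 17 (all called probes 48.9%). Without scaling it was 0 of 40, against 8.97% of all called probes, after a shift of -0.96 common to all probes. Normexp with percentile scaling set the median of the members at -0.40 and that of all probes at 0.26.

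**Figure D5:**
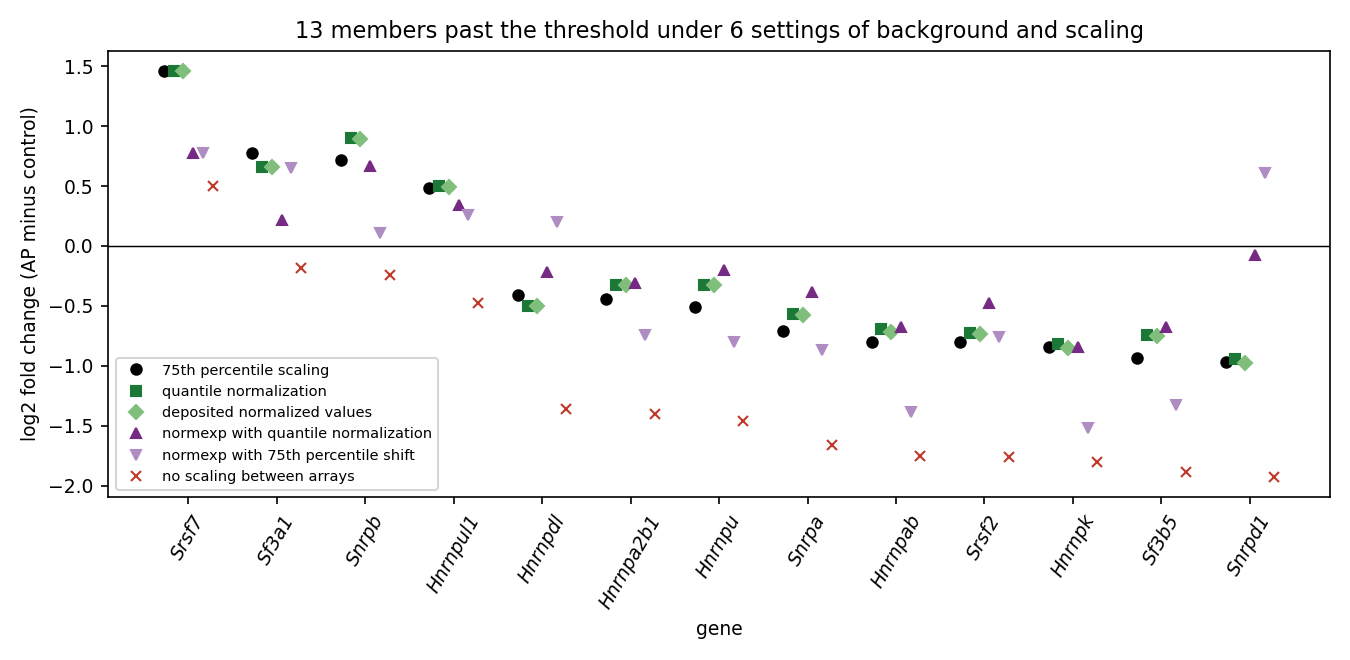
Log2 fold changes (AP minus control) of the 13 members past the threshold are plotted under 6 settings, of which 2 use the normexp background on median signals. Srsf7 stays above 0 and 7 genes that fell (Hnrnpa2b1, Hnrnpu, Snrpa, Hnrnpab, Srsf2, Hnrnpk and Sf3b5) stay below 0 throughout; Sf3a1, Snrpb and Hnrnpul1 drop below 0 without scaling, and Hnrnpdl and Snrpd1 lie above 0 with the normexp background under the same percentile scaling.

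The counts also rested on all 4 arrays. Without AP replicate 1, 3 member genes were higher and 6 lower, as was the case without AP replicate 2. Without control replicate 1 it was 1 higher and 3 lower, and without control replicate 2 it was 1 higher and 2 lower. Srsf7, Hnrnpk and Sf3b5 were the 3 of 13 called genes that kept call and direction in all 4 cases. A left-out array leaves 1 residual degree of freedom, and the lone array of its group is assumed to vary like the other group.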

How the data were processed

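Arrays were read with Agilent Feature Extraction 11.0.1.1, per the submitters' processing notes and the file headers, which also name rn4 for the design. Per the labels, RNA was freed of ribosomal RNA, amplified with random primers and labelled with Cy3. The deposited scanner intensity is background-corrected per array with no scaling between arrays, per the file headers. The deposited normalized table is in log2; how it was normalized was not stated in the sources used here.

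Control spots and spots marked as outliers were left out, log2 intensities were averaged per probe, scans of 1 array were averaged and the 75th percentile was subtracted. Probes that passed the scanner's background test in at least 3 of 6 scans were fitted with limma 3.58.1 in R 4.3.3 (lmFit, eBayes, two-sided, 2 residual degrees of freedom), and tables were made with Python 3.11.15. The fit was tested on simulated data. Symbols came from RefSeq (GRCr8) through the accession, for 14294 probes; the brightest probe stood for a gene. Normexp (offset 50) used median spot signals, since the planned mean signal is no column of the files. Members, lists and tests were chosen with earlier results of these data known. Values in every scan are given for the 3 largest calls each way in each class and 17 set genes, of which Hnrnpc was not measured here; up to 3 calls each way are named per list. Alternatives changed scaling, background, filter, rescans, replicates, block and variance model.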

Additional observations from a re-analysis of the deposited data

How the results depend on the processing

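All alternatives except crossed replicate numbers were planned before they were run, but with earlier results of these data known. The normexp settings departed from the plan by using median spot signals. Without scaling, member probes were 0 higher and 40 lower (median -0.95), member genes 0 and 30 (-0.99), all probes 768 and 7798 (-0.88), and genes of the 6 lists 3 and 83 (-0.92). Quantile normalization gave 9 member probes higher, medians of 0.12 (member probes), 0.033 (member genes) and 0.17 (lists); the deposited values gave 8 and 0.10, 0.029 and 0.16. Normexp with quantile scaling gave 11 member probes and 8 member genes higher, medians of 0.13 (member probes) and 0.021 (all probes). Normexp with percentile scaling gave 14 member probes lower, 6 list genes higher and medians of -0.40 (member probes), -0.40 (member genes), 0.26 (all probes) and -0.046 (lists). With no filter on dim probes 6800 probes were higher (median 0.38; member genes 0.040), and with probes above background on all scans the median of all probes was 0.18. Scans as 6 replicates gave 14 member probes higher and 16 lower, with 11 member genes higher; with the scan session as a block it was 10, 15 and 9.

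With the replicate number as a block, which the labels do not tie to a shared source, 2 member probes and genes were higher and 5 lower, and 15 list genes higher and 12 lower; same-numbered arrays deviated with r = -0.21. Crossed numbers, chosen after seeing the data, gave 4 member probes higher and 8 lower, of 7292 called probes.

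Leaving out 1 array gave 1 to 3 member probes and genes higher and 2 to 6 lower, 2120 to 2741 of all probes higher, 2520 to 3101 lower, and 12 to 16 list genes higher and 7 to 13 lower. Medians ran from -0.031 to 0.10 (member probes), -0.070 to 0.048 (member genes), 0.011 to 0.12 (all probes) and 0.013 to 0.14 (lists).

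Signs turned without scaling for Hnrnpa1 (-0.66), Hnrnpd (-0.82), Hnrnpul1 (-0.47), Sf3a1 (-0.18), Snrpb (-0.24), Srsf3 (-0.88) and Srsf5 (-0.48), and under normexp with percentile scaling for Hnrnpa1 (-0.020), Hnrnpd (-0.40), Hnrnpdl (0.20), Snrpd1 (0.61), Srsf1 (0.069) and Srsf5 (-0.036). Srsf3 read -0.10 under normexp with quantile scaling and -0.063 to 0.22 with 1 array left out; it was not well above background on AP arrays, so its readings, the one without scaling included, give no direction. Hnrnpk and Sf3b5 kept direction and call in all 18 alternatives. The causes were not tested. Snrpd1, not well above background on AP arrays, has only a bound, so its values here are fitted readings.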
